A study of Oncorhynchus mykiss with 14 samples.

Results

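Gynogenetic doubled haploids of rainbow trout die at every stage, and the loss between the eyed embryo and the swimming larva was examined here against the maternal RNA of the eggs. The 7 gynogenetic libraries of the series, of 14 libraries in all, were split by the survival of their clutch. For each female, the survival of gynogenotes at swim-up was divided by their survival at the eyed stage. Females with a ratio above 0.7 are called low-loss females and those with a ratio below 0.6 high-loss females. The low-loss females were F1, F3 and F7, with ratios of 0.79 ± 0.17, 0.79 ± 0.14 and 0.86 ± 0.047. The high-loss females were F2, F4, F6 and F8, with ratios of 0.44 ± 0.13, 0.44 ± 0.035, 0.53 ± 0.11 and 0.53 ± 0.13. Each SD was propagated from those of the incubation trays, with the eyed and swim-up values taken as independent, which was not checked. No female lay between the limits. The nearest to them were F1 and F3 inside the low-loss class and F6 and F8 inside the high-loss class, and the range of 1 SD around F1 reached down to 0.63, against up to 0.66 around F8. The rule for the classes uses survival only and no RNA counts, but it was chosen with earlier results of these data known.

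The gynogenetic eggs had been activated with UV-irradiated sperm of European grayling, and gynogenotes of the same activation were made diploid by a pressure shock that blocks the first cleavage. The control eggs of the same 7 females had been fertilized with untreated rainbow trout sperm and were not shocked. All females were adults of the Rutki strain and of the same age, and the labels give XX, Doubled Haploids as the genotype of both groups. The control eggs got untreated sperm and no shock, so this label does not describe their offspring. Each library came from a pool of a few eggs taken after activation, with the time given only as immediately after treatment. The sources used here do not say whether the sequenced eggs had been shocked. The survival ratio belongs to other eggs of the clutch than those sequenced, and each class holds few females, so the pool of 1 clutch is the unit of replication. The labels number the libraries but do not name the female, which was taken from the study's sample sheet.

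In fish, the embryo lives on RNA and protein laid down in the egg until its own genome is switched on. Stored mRNAs for cyclins, kinesins and spindle proteins serve the fast cleavage divisions, and stored mRNAs for mitochondrial and metabolic enzymes serve energy supply. A doubled haploid is homozygous at every locus, so recessive alleles are exposed in it once its own genome is switched on. The question was whether eggs of clutches that kept most of their eyed gynogenotes carried other maternal transcripts than eggs of clutches that lost many of them.

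The counts assigned to genes ranged between 51870372 and 67557305 in the low-loss gynogenetic libraries, and between 45860801 and 64700077 in the high-loss ones. Levels are counts divided by DESeq2 size factors over the 14 libraries (normalized counts), and 30919 genes with a mean above 1 were tested. Egg RNA was checked with the few markers that had a name. The mRNA of ccnb1 (cyclin B1, which drives the egg's meiotic and mitotic divisions) had 92113 to 158790 normalized counts and was number 3 of the detected genes by mean over the gynogenetic libraries. ENSOMYG00000006886, described as a zona pellucida (egg coat) protein, had 6070 to 23462. No member of the marker lists for follicle cells, blood, leukocytes and sperm had a symbol in the sources used here, so these lists were not measured. The gene hcls1, known from blood and immune cells, is on none of those lists and was chosen after its values were seen. It had 0 to 22.1 normalized counts in low-loss gynogenetic libraries, against 0 to 9.98 in high-loss ones. In bulk RNA of pooled eggs, fewer cells of a type and less RNA per cell cannot be told apart. The low-loss libraries were about as like each other as they were like high-loss ones. Pearson's r of log2(normalized count + 1) across the detected genes, which share a library's depth, had a median of 0.923 over the 3 pairs of low-loss libraries, 0.906 over the 6 pairs of high-loss libraries and 0.915 over the 12 pairs between the classes.

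No gene passed the main test between the classes. With edgeR's quasi-likelihood test in the gynogenetic libraries, 0 of 30919 genes (0%) had an adjusted p below 0.05, and the lowest adjusted p was 0.115. Unadjusted, 1451 genes (4.69%) had a p below 0.05, of which 679 (2.2%) had higher and 772 (2.5%) lower levels in low-loss clutches. DESeq2's Wald test called 83 genes in the same libraries, 33 higher and 50 lower. These are 0.126% and 0.191% of the 26215 genes with an adjusted p in that test. None of the 83 had a symbol, but only 224 of the 30919 genes tested had one here. The limma voom test called 0, with 1680 at an unadjusted p below 0.05. In 31 of the 33 and 35 of the 50 genes that DESeq2 called, every low-loss library lay on the same side of every high-loss library. DESeq2 called these genes for a class difference in these same libraries, so their order is not separate evidence. In the matching control eggs, 0 genes (0%) passed by edgeR, and 85 of the 30448 genes with a p by DESeq2 passed there. Unadjusted, 1300 genes (4.2%) had an edgeR p below 0.05.

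**Figure D1:**
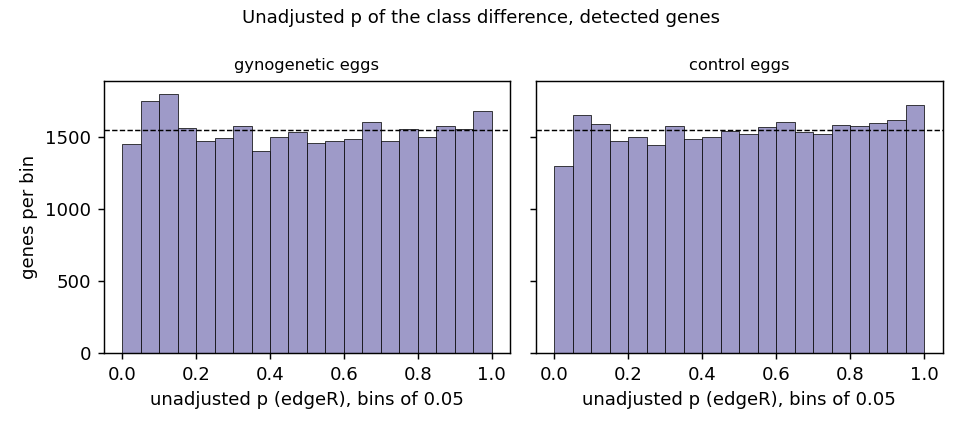
Number of detected genes (y axis) per bin of 0.05 of the unadjusted edgeR p (x axis) for low-loss against high-loss females, in gynogenetic eggs (left) and control eggs (right). The dashed line is the 1546 genes that each bin would hold if p were spread evenly. The lowest bin holds 1451 genes in gynogenetic and 1300 genes in control eggs, under the line in both.

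In the gynogenetic libraries, 1652 genes (5.34%) had class ranges that did not overlap. Of these, 875 (2.83%) had every low-loss library above every high-loss library, and 777 (2.51%) had every low-loss library below. Most of these gaps were small. Of the genes without overlap, 725 higher and 723 lower ones had a mean of at least 10 normalized counts. Among them, 342 higher and 436 lower genes differed by 2-fold or more in their means. Only 44 higher and 65 lower genes had a gap of 2-fold or more between the nearest libraries of the classes. In control eggs, 1537 genes (4.97%) did not overlap. The class order was kept in the other pool of eggs by 198 of the higher genes, which is 22.6% of those in gynogenetic and 25.7% of those in control eggs, and by 146 of the lower genes (18.8% and 19%). The order was opposite in the pools for 4 and 3 genes. The pools hold different eggs of the same 7 females, so they are not independent females.

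The clearest differences were in genes without a symbol. Only 224 of the 30919 genes tested had a symbol here, so this says nothing about what kind of genes they are. ENSOMYG00000002874 had 1862 (F1), 1485 (F3) and 1236 (F7) normalized counts in the low-loss gynogenetic libraries, against 65.1 (F2), 35.9 (F4), 177 (F6) and 34.7 (F8) in the high-loss ones. The classes were far apart, with a 20-fold difference of means and no library between them. The log2 fold change was 4.27 ± 0.61 (SE), with an adjusted p of 0.115 by edgeR and an exact permutation p (both sides) of 0.0286, the smallest that 3 against 4 libraries allow and one that 820 genes (2.65%) reached. The control libraries gave 1490, 1412 and 2748 in low-loss clutches, against 57.2, 45.4, 253 and 47.7 in high-loss clutches. F6 was the highest of the high-loss females in both pools, and without its gynogenetic library edgeR's adjusted p was 0.0024. Over the other alternatives of this comparison the adjusted p ran from 1.3e-09 by DESeq2 to 0.571. It was 0.0002 over the 14 libraries with the female as a block (limma voom), but 0.385 when the 2 libraries of each female were summed. Both of these fits also hold the control eggs. The block fit takes a correlation shared by all genes, and the libraries of most females were close in this gene, so its p may be too small.

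ENSOMYG00000011234 split the low-loss females among themselves. It had 4507 (F3) and 7790 (F7) but only 105 (F1) normalized counts in low-loss gynogenetic eggs, against 46.5, 25.9, 9.89 and 52.9 in F2, F4, F6 and F8. The classes did not overlap, but F1 lay much nearer to the high-loss females than to F3 and F7. The log2 fold change was 6.96 ± 1.04, the adjusted p 0.115 by edgeR and the exact permutation p 0.0286, and without F1 the adjusted p was 0.00031. Over the other alternatives it ran from 3.8e-05 by DESeq2 to 0.918. Control eggs had 80.9 in F1, 3741 in F3 and 5008 in F7, against 7.26 to 30.3 in high-loss females.

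On the lower side, ENSOMYG00000054082 had 161, 230 and 118 normalized counts in the low-loss gynogenetic eggs of F1, F3 and F7, against 849, 980, 1116 and 925 in F2, F4, F6 and F8. Both classes were tight, and the low-loss mean was 5.71-fold lower. The log2 fold change was -2.51 ± 0.45, with an adjusted p of 0.521 by edgeR and an exact permutation p of 0.0286. In control eggs it had 154, 102 and 121 in low-loss clutches, against 727 to 1187 in high-loss clutches, again with no overlap. Its adjusted p was 3.4e-07 by DESeq2 and 0.0031 over the 14 libraries with the female as a block (limma voom), but 0.339 when the 2 libraries of each female were summed, and up to 1 over the other alternatives. The block fit has the limit given above. ENSOMYG00000016780 had 0 counts in all 3 low-loss gynogenetic libraries, against 46.5 (F2), 5.99 (F4), 138 (F6) and 148 (F8). Set against the limit that 0 counts allow, 3 counts over the class, its mean was at least 94.1-fold lower in the low-loss gynogenetic libraries, which covers counting error only. The high-loss mean in gynogenetic eggs was 84.7 ± 69.6 (SD). The adjusted p of the gene was 0.706 by edgeR and 4.4e-05 by DESeq2, up to 1 over the other alternatives, and its exact permutation p was 0.0857. F4 was close to the low-loss clutches in this gene, and in control eggs the classes overlapped, with 11.6 (F1), 1.67 (F3) and 0 (F7) in low-loss clutches, against 1.81 in F4 and 71.5 to 181 in the other high-loss females. These genes were the 2 with the lowest p in each direction among those without a symbol.

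**Figure D2:**
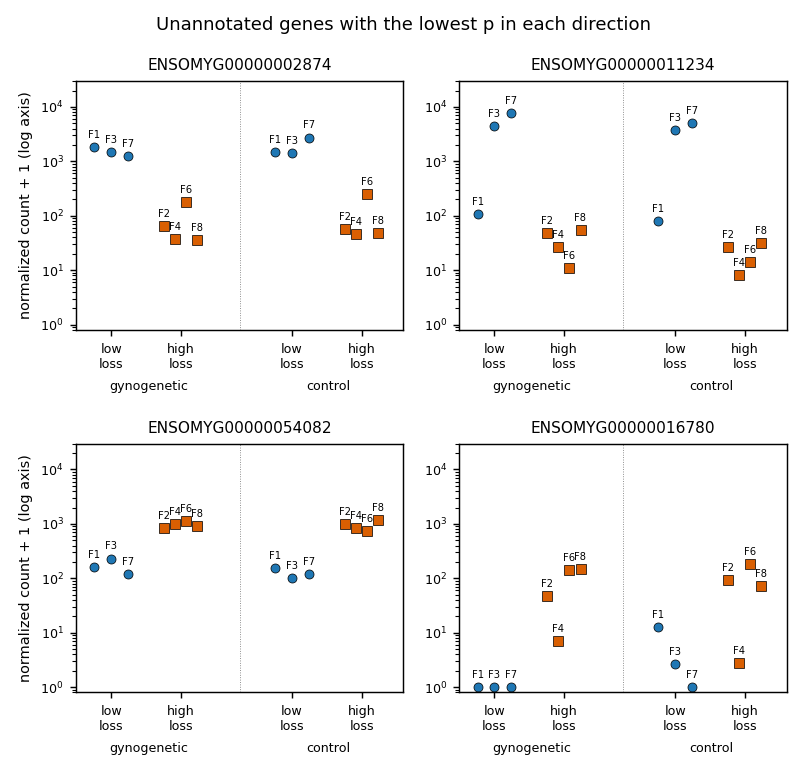
Normalized count + 1 (log y axis) in each library of the genes with the lowest p among those without a symbol here, which the title calls unannotated. Gynogenetic eggs are left of the dotted line and control eggs right. Blue circles are low-loss and orange squares high-loss females, named beside each point. The counts of ENSOMYG00000002874 and ENSOMYG00000054082 part the classes in both pools, and F1 stands apart from F3 and F7 in ENSOMYG00000011234.

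Names were at hand for 224 of the genes tested, all taken from the gene lists of the study, which hold genes it chose for their correlation with eyed-stage survival in gynogenetic or in control eggs. Of these, 112 had higher and 112 lower levels in low-loss clutches, 6 were higher and 0 lower at an unadjusted p below 0.05, against 2.2% and 2.5% of all genes tested. Without overlap, 10 were higher and 1 lower, against 2.83% and 2.51% of all genes. In either direction 2.68% of the 224 had an unadjusted p below 0.05 and 4.91% had no overlap, against 4.69% and 5.34% of all genes. Neither pooled share was above the background, but the genes without overlap were mostly higher ones. In the study's control-egg list, with or without a symbol, 13 of 220 genes were higher and 1 was lower without overlap (6.36% in all). This lean was not tested. The 10 named genes with the lowest p in each direction were taken, and those that are reported are described next. All 20 came from the control-egg list and all missed the adjusted threshold, with an adjusted p by edgeR of 0.924 to 0.925, so their values are a description of these libraries. The study chose that list on the control libraries of these same females, so it is not independent evidence. The study places that list mainly in small molecule metabolism and in processes of microtubules. Whether genes of these kinds are more frequent among the 20 than in the list was not tested.

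Of the 10 genes with higher levels in low-loss clutches, kif2c (ENSOMYG00000046140, chromosome 28, 21630620 to 21648803 in RefSeq's USDA_OmykA_1.1) encodes a kinesin that takes apart microtubule ends at the centromere. It had 65749 (F1), 56054 (F3) and 56201 (F7) normalized counts, against 47061 (F2), 31143 (F4), 41632 (F6) and 47990 (F8). Every low-loss library was above every high-loss library, by 1.41-fold in the means, with an exact permutation p of 0.0286. A second copy of kif2c (ENSOMYG00000017570, on chromosome 8), chosen after its values were seen, had 30316 to 35435 in low-loss clutches, against 19041 to 28836 in high-loss clutches. Reads of such duplicated genes may have been divided between the copies, so they are not separate evidence. SHCBP1, whose mammalian protein works at the end of cell division, had 47998, 35912 and 36740, against 33723, 20442, 30842 and 31017, also with no overlap (1.39-fold, exact permutation p 0.0286, or 0.0571 on the log2 scale).

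The spindle protein gene tacc3 and the minus-end kinesin gene kifc3 had higher means but overlapping classes. The levels of tacc3, which stabilizes spindle microtubules with the clathrin complex, were 59120, 45436 and 68051 in F1, F3 and F7, against 50639, 30888, 39911 and 45017 in F2, F4, F6 and F8. Those of kifc3 were 16917, 15188 and 26084, against 12492, 6270, 17427 and 13006. F6 thus exceeded F1 and F3 in kifc3, and F2 exceeded F3 in tacc3. The log2 fold changes were 0.47 ± 0.24 for tacc3 and 0.66 ± 0.33 for kifc3, with exact permutation p of 0.114 each. The gene labelled selenoh, which the study's annotation describes as a centromeric histone H3-like protein, had 3922, 2522 and 1830, against 1455, 2423, 1179 and 1624. The levels of ccnb1 were 158790, 129710 and 121610, against 137410, 96785, 92113 and 119660, a log2 fold change of 0.30 ± 0.21 with overlapping classes. Of the 36 genes in the spindle and cell cycle list, tacc3 and ccnb1 were the 2 that could be matched. Neither passed the adjusted threshold, and their median log2 fold change was 0.39, against -0.03 over all genes tested. This median rests on 2 genes, and tacc3 was picked for its p in these libraries, so it says nothing about the list.

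These values moved with single clutches. F4 had the lowest level of the high-loss libraries in 8 of the 10 named genes that were higher in low-loss clutches. With each library left out in turn, the smallest log2 fold change of kif2c was 0.38, without F4. It was 0.33 for SHCBP1 without F1, 0.32 for tacc3 without F7 and 0.37 for kifc3 without F7, and kifc3 had 0.44 without F4. Among the others of the 10, snrpa had 0.30 and selenoh 0.39 without F1.

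**Figure D3:**
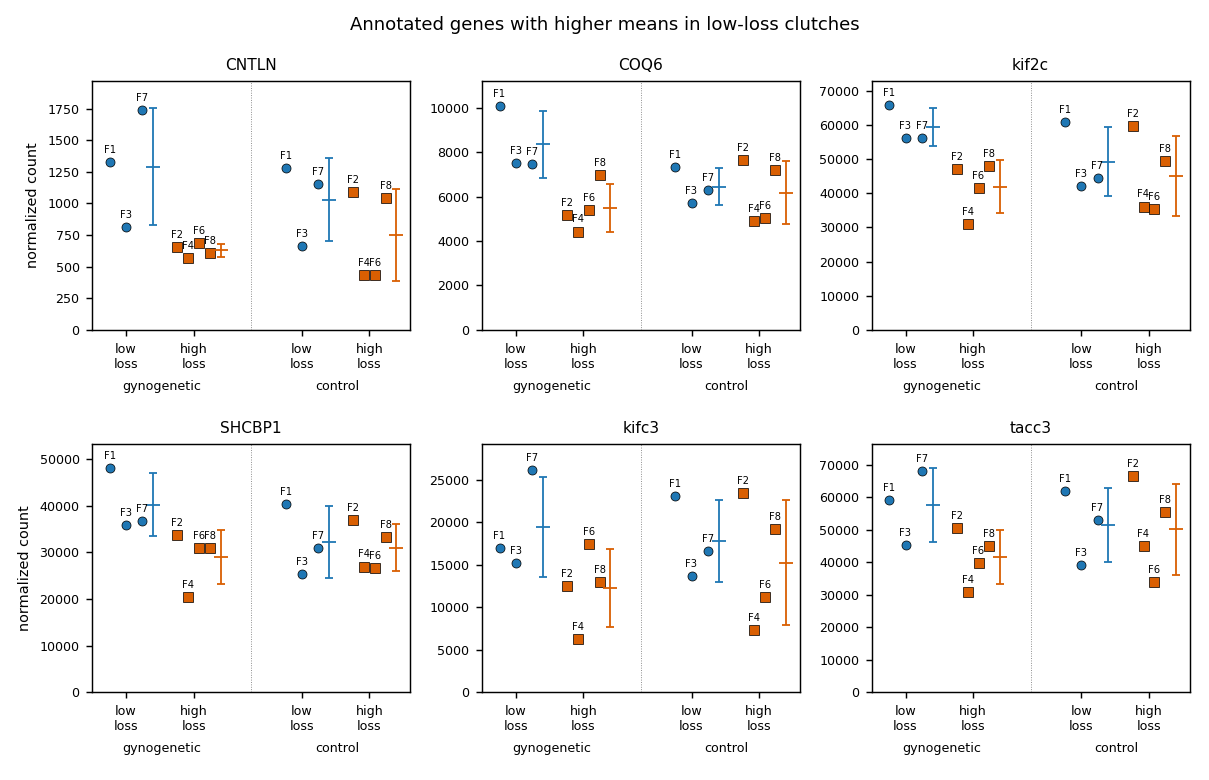
Normalized counts (y axis, from 0) of 6 named genes in each library, for gynogenetic eggs (left of the dotted line) and control eggs (right). Blue circles are low-loss and orange squares high-loss females, and bars show the mean ± SD of each class. In gynogenetic eggs CNTLN, COQ6, kif2c and SHCBP1 do not overlap between the classes, and F4 is lowest in each panel; in control eggs the classes overlap in all 6.

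CNTLN (ENSOMYG00000009312) is listed in the study's annotation as a long non-coding RNA under the symbol of centlein, a centrosome protein. It had 1327, 813 and 1736 normalized counts in F1, F3 and F7, against 653, 569, 688 and 606 in F2, F4, F6 and F8. All low-loss libraries were higher, 2.05-fold in the means (log2 1.04 ± 0.39, exact permutation p 0.0286). COQ6 (chromosome 25, 20606731 to 20618021), a mitochondrial monooxygenase of ubiquinone synthesis, had 10086, 7493 and 7469, against 5187, 4427, 5383 and 6973. The classes did not overlap, although F8 came close to F3 and F7 (1.52-fold, exact permutation p 0.0571).

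The gene snrpa, for a protein of the U1 splicing particle, had 33278, 25446 and 23263 in low-loss eggs, against 20650, 16346, 18901 and 23334 in high-loss eggs. F8 lay above F7, so the classes touched. The difference of calcb, a calcitonin-related peptide hormone gene, came from 1 library. F1 had 1347 normalized counts, while F3 and F7 had 254 and 210, against 351, 122, 107 and 276. The log2 fold change of 1.5 ± 0.67 was 0.12 without F1.

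A pair of further genes of the same list, tuba1c (an alpha-tubulin) and pbx1a (a homeobox factor), had a mean below 10 and were noticed for their values. Each was found in every low-loss gynogenetic library, tuba1c with 12.4, 7.36 and 10.98 and pbx1a with 6.18, 3.68 and 7.84, against 0 in every high-loss library. Of all genes tested, 64 had this pattern of 0 in every high-loss library and some counts in every low-loss one. It was not kept in control eggs. There tuba1c had 9.63, 3.34 and 6.04 in F1, F3 and F7, against 9.86, 0, 0 and 6.50 in F2, F4, F6 and F8. In the same control eggs pbx1a had 3.85, 0 and 3.02, against 3.95, 0, 0 and 2.17.

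The 10 named genes with the lowest p among those lower in low-loss clutches overlapped between the classes in each case. The single lower named gene without overlap was abhd16a, which is not among the 10 and was chosen after its values were seen. It had 3547, 3032 and 2760 normalized counts in F1, F3 and F7, against 4541, 4326, 3606 and 3652 in F2, F4, F6 and F8 (log2 -0.37 ± 0.28, exact permutation p 0.0571), and its classes overlapped in control eggs. The mRNA of dazap2 (chromosome 16, 45537660 to 45541777), a small adaptor protein that binds the germ cell protein DAZ, had 1784, 2117 and 1137 normalized counts in F1, F3 and F7, against 4124, 4160, 1045 and 3734 in F2, F4, F6 and F8. The high-loss females F2, F4 and F8 had about the same high level, and F6 had the lowest of all 7. The log2 fold change was -0.94 ± 0.44, the exact permutation p 0.143, and without F6 the change was -1.23. The gene pafah1b1a, for the dynein regulator Lis1, had 1675, 2025 and 1814, against 2894, 4142, 1857 and 3016, and only F6 of the high-loss females fell within the low-loss range (exact permutation p 0.0857).

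The chaperone and ligase genes dnaja1 and maea also had lower means. The level of dnaja1, a cochaperone of Hsp70, was 1036, 1536 and 797 in low-loss eggs, against 1727, 2575, 1638 and 1500 in high-loss eggs. F3 alone lay above the lowest high-loss library, that of F8. The level of maea, part of a ubiquitin ligase complex, was 764, 1017 and 660, against 1372, 1461, 1285 and 958, with F3 again the only low-loss library inside the high-loss range. The log2 fold changes were -0.72 ± 0.37 and -0.64 ± 0.37, with exact permutation p of 0.0857 each.

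The other 6 named genes were ssr1 (a subunit of the translocon-associated complex of the endoplasmic reticulum), zgc:123305 (described as a phosphatidate phosphatase like LPIN2), kpna3 (an importin alpha of nuclear import), drg2 (a GTP-binding protein), atl1 (atlastin, which fuses endoplasmic reticulum membranes) and dapk3 (a death-associated kinase). Their log2 fold changes ran from -1.14 ± 0.75 in drg2 to -0.74 ± 0.50 in dapk3, and exact permutation p from 0.171 to 0.371. In ssr1 the high-loss mean rested on F4, with 1300 normalized counts, against 576 in F3, the highest low-loss library, and its log2 fold change without F4 was -0.41. Without F4 the change was -0.33 for kpna3, -0.49 for zgc:123305 and -0.74 for drg2. F1 decided atl1, with 200 normalized counts, against 1069 in F3 and 1126 in F7 and 844 to 2062 in high-loss eggs, and without F1 the change was -0.38. Other libraries made the change larger or smaller: without F3 it was -1.82 in ssr1, -1.83 in drg2 and -1.46 in dapk3, and without F7 it was -0.48 in dapk3.

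**Figure D4:**
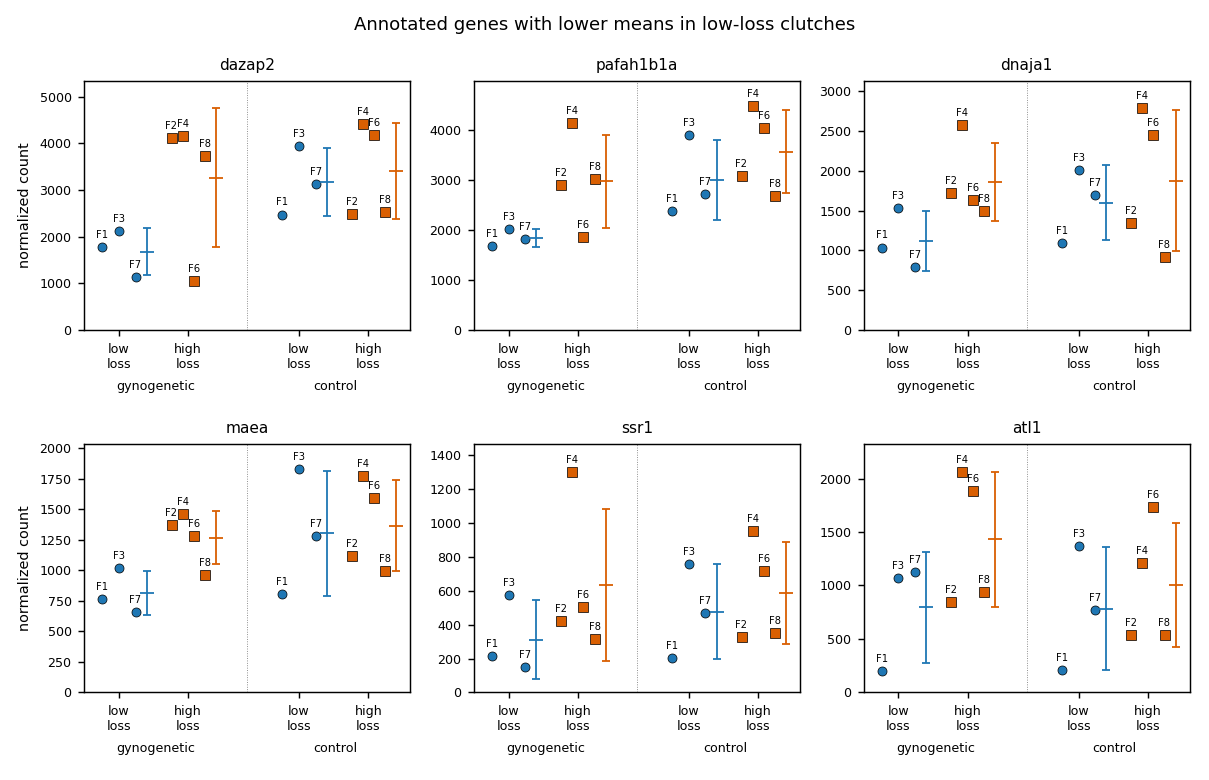
Normalized counts (y axis, from 0) of 6 named genes in each library, for gynogenetic eggs (left of the dotted line) and control eggs (right). Blue circles are low-loss and orange squares high-loss females, and bars show the mean ± SD of each class. In gynogenetic eggs F6 lies below the low-loss females in dazap2 and among them in pafah1b1a, and F4 stands highest in ssr1, with 1300.

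In control eggs of the same females these named differences were smaller. The log2 fold changes of the 10 higher genes lay between -0.003 and 0.46 there, and those of the 10 lower genes between -0.35 and -0.06. The genes were picked for their p in gynogenetic eggs, so a smaller value in the other pool has no test of its own here. The difference of the class effect between the pools was tested in each gene with the female as a block. It called 2 of 30919 genes (0.00647%), with 725 (2.34%) at an unadjusted p below 0.05. Among the 20 named genes, calcb and dazap2 were below that unadjusted level, with differences of 1.07 ± 0.47 and -0.79 ± 0.31 (gynogenetic minus control, log2), and both had an adjusted p of 1. In control eggs dazap2 had 2476, 3936 and 3129 in low-loss clutches, against 2492, 4408, 4181 and 2534 in high-loss clutches, with the classes overlapping. F2 and F8 had more of it in gynogenetic than in control eggs, and F4, F6 and all low-loss females had less. The other named genes with the lowest p for this difference were palmda (1.29 ± 0.51), zc3h7bb (2.89 ± 1.24) and sirt2 (-0.85 ± 0.42), all with an adjusted p of 1. The level of zc3h7bb in gynogenetic eggs was 45.3, 20.2 and 47.0 in low-loss clutches, against 0, 0, 11.3 and 21.9 in high-loss clutches, with F3 below F8, while in control eggs it was detected in every female and the classes overlapped.

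**Figure D5:**
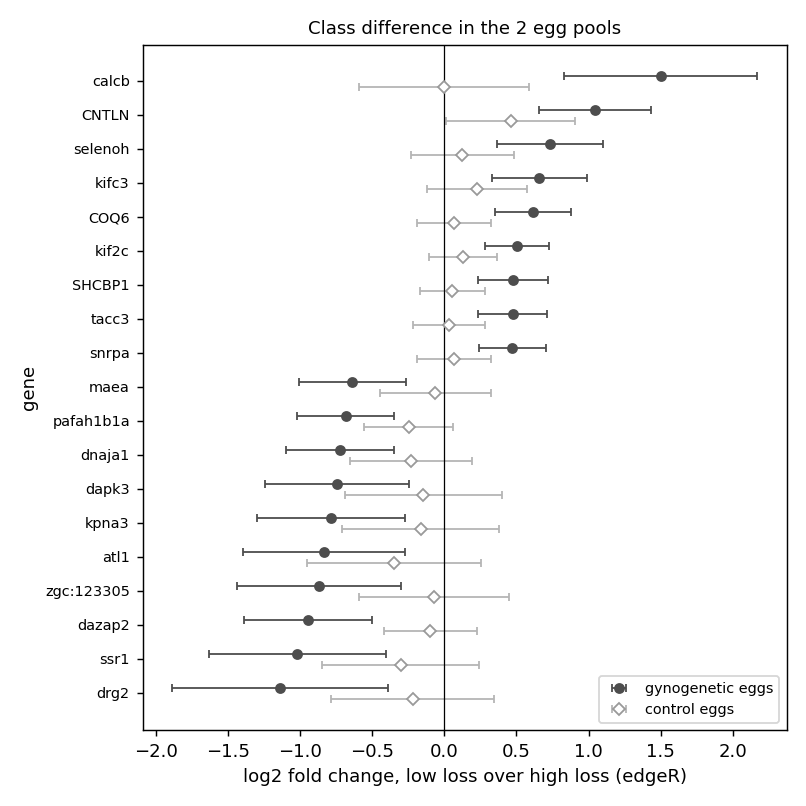
Log2 fold change of low-loss over high-loss females (x axis) with its SE for the reported ones among these named genes (y axis), in gynogenetic eggs (filled circles) and control eggs (open diamonds). The gynogenetic values run from -1.14 in drg2 to 1.5 in calcb, and the control values from -0.35 in atl1 to 0.46 in CNTLN.

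The 2 genes called for a difference between the pools have no symbol. ENSOMYG00000017795 had 140, 0 and 51.7 normalized counts in the gynogenetic eggs of F1, F3 and F7, against 11.6, 11.98, 580 and 626 in F2, F4, F6 and F8. In control eggs it had 266, 3.34 and 411, against 1.97, 0, 330 and 1243. F1, F7, F6 and F8 thus had the transcript in both pools and F2, F3 and F4 had little, and the class effects differed by -2.71 ± 0.58 (adjusted p 0.0483 by edgeR). ENSOMYG00000046163 had 101, 79.1 and 114 in low-loss gynogenetic eggs, against 960, 0, 2366 and 3016 in high-loss ones. In control eggs it had 92.4, 23.4 and 0, against 955, 20, 2382 and 2365, and the effects differed by 1.97 ± 0.42 (adjusted p 0.0483). F4 lacked the transcript in its gynogenetic eggs, unlike the other high-loss females. Neither gene was called without the libraries of F2, F3, F4 or F7, each left out in turn (adjusted p 0.726 and 0.75 without F4, and 1 for both without F7). The first was also lost without F6 and the second without F8. Neither was called without the block, with DESeq2 or with filterByExpr's filter on low counts (adjusted p of 1 for both in each). Over all alternatives the adjusted p ran from 0.0034 to 1 and from 3.3e-05 to 1.

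The named genes with the lowest p between the classes in control eggs were rasl11b, fbxw11a, sox8a, fam185a and SCMH1, and none passed there either (adjusted p of 1 by edgeR). The level of fbxw11a, the substrate receptor of a ubiquitin ligase, was 12407, 12184 and 14960 in low-loss control eggs, against 17317, 16489, 15425 and 16068 in high-loss control eggs, with no overlap (exact permutation p 0.0286). Its unadjusted p by edgeR was 0.158 there, and 4.97% of all genes tested had no overlap in control eggs. In gynogenetic eggs the classes of fbxw11a overlapped, with 13168, 10891 and 16104, against 12603, 13929, 13538 and 15792. The level of rasl11b, a small GTPase gene, was 27.0, 10.01 and 9.06 in low-loss control eggs, against 31.6, 38.1, 26.2 and 58.5 in high-loss ones. The log2 fold changes in control eggs were 0.74 ± 0.51 for sox8a, 1.05 ± 0.74 for fam185a and -0.80 ± 0.59 for SCMH1, and the classes overlapped in each.

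Genes of cell death, mitochondria and growth signalling that could be matched had overlapping classes and 0 calls, which is also the background, since 0% of all genes were called and only 5.34% did not overlap. The 2 cell death genes, CASP6 (an executioner caspase) and pgam5 (a mitochondrial phosphatase), had log2 fold changes of 0.08 ± 0.68 and 0.57 ± 0.65. The level of pgam5 was 1059, 206 and 1855 in F1, F3 and F7, against 272, 930, 400 and 1239 in F2, F4, F6 and F8, which crosses the classes. The 3 mitochondrial genes, vdac2 (an outer membrane channel), COX5B (a subunit of cytochrome oxidase) and TIMM44 (of the import motor), had a median log2 fold change of 0.07. Of these vdac2 had the highest log2 fold change, 0.41 ± 0.24, with 26297, 20091 and 23403, against 22357, 14268, 16170 and 17654 (exact permutation p 0.0857). The mitochondrial chaperone hspa9 had 36245, 24020 and 30377, against 27060, 17434, 24423 and 27876. In signalling, IRS2 (an adaptor of the insulin receptor) was present or nearly absent by female, with 249, 1.84 and 428 against 0, 265, 0 and 445. The BMP and activin genes bmp7a, fstl3 and acvr1ba, the lipid regulator insig2, the transcription factor genes gata2a and irf9 and the ligase gene fbxw11a had log2 fold changes from -0.29 to 0.21, with overlap in each.

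The genes that the study chose for their correlation with eyed-stage survival of gynogenotes had no member past the class test in gynogenetic eggs. Of its 53 gynogenetic genes, 0 were called, 0 had an unadjusted p below 0.05 and 0 had classes without overlap, against 4.69% and 5.34% of all genes, and their median log2 fold change was 0.02. The same held for the 20 genes it lists as most related to survival, with a median of -0.03. The classes are mixed along the order of eyed-stage survival, which runs F2, F3, F6, F1, F4, F8 and F7 upwards, and these genes were chosen to follow that order. Fits with eyed-stage survival or with the study's competence group as a covariate called 0 and 5 genes.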

How the data were processed

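The authors checked reads with FastQC 0.11.9, trimmed them with Flexbar 3.5.0, mapped them to OmykA_1.1 with STAR 2.7.5c and counted them per Ensembl gene (annotation 108) with HTSeq 1.99.2. The deposited values are raw counts for 64494 genes, and 5 summary lines that name no gene (64.6% to 67.6% of the records) were left out. The strand setting and the handling of duplicated genes are not given in the sources used here. Females were assigned through the library number and checked against the study's normalized values, whose ratio to the deposited counts was constant within each of the 14 libraries. DESeq2 1.42.0 size factors gave normalized counts. The main test was edgeR 4.0.16 (TMM, quasi-likelihood F-test, Benjamini-Hochberg adjusted p below 0.05) in R 4.3.3, with DESeq2 and limma 3.58.1 as alternatives and exact permutation tests for single genes. On data simulated for the gynogenetic eggs the main test missed most 2-fold and 4-fold changes, missed some larger ones and called some unchanged genes. A result without calls therefore does not exclude changes of these sizes. SE is the log2 fold change over the square root of F. The 2 libraries of a female come from 1 clutch: their deviations from the group means correlated with r of 0.373 to 0.529, against at most 0.0548 between females, so the female was the block in the test between pools. The named genes were the 10 with a symbol and the lowest p in each direction at a mean of at least 10, the 2 without a symbol in each direction, up to 4 members of each list, and the 5 lowest in the control and the between-pool tests. A gene that the rule takes among the higher ones is not reported here, and counts include it. Classes, members and lists were chosen with earlier results of these data known. The lists were matched by symbol, most members of each had none, and lists with no match were left out. RefSeq coordinates are given only where the chromosome was the same in the study's annotation. Intervals and limits at 0 cover counting error only.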

Additional observations from a re-analysis of the deposited data

Results flagged for a closer look

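In 102 groups of 4 high-loss libraries (named genes and library measures in both pools), 4 had a library far from the other 3, where chance gives about 1 in 20. In gynogenetic eggs dazap2 had 1045 normalized counts in F6, against 3734 to 4160 in the others, and acvr1ba, an activin receptor gene, had 777 in F8, against 1251 to 1348. In control eggs ENSOMYG00000002874 had 253 in F6, against 45.4 to 57.2, and CASP6 had 86.6 in F8, against 43.5 to 50.2.

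The difference of the class effect between gynogenetic and control eggs passed its test with the female as a block in ENSOMYG00000017795 (-2.71, log2) and ENSOMYG00000046163 (1.97), and both calls were lost with DESeq2, with filterByExpr, without the block and without the libraries of F2, F3, F4 or F7.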

How the results depend on the processing

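Over 18 alternatives, the log2 fold changes of the 20 named genes and of the 4 genes without a symbol in gynogenetic eggs kept their direction. Those genes were picked for their p in these libraries and most alternatives refit the same counts, so a kept direction is not separate evidence. The count of genes called in gynogenetic eggs, 0 in the main fit, was 83 with DESeq2, 3 with no filter on low counts, 5 with competence group as a covariate and 0 to 3 when each library was left out. With the female as a replicate block over 14 libraries, limma voom called 12, but edgeR on the sums of the 2 libraries of each female called 0, with 1552 at an unadjusted p below 0.05. The block fit shares a correlation over all genes, so its p may be too small in genes where the libraries of a female are more alike than that. Chosen after seeing the data, robust dispersions gave 2 and limma voom 0. In control eggs the count, 0 in the main fit, was 85 with DESeq2, 5 with no filter and 0 to 6 when each library was left out. For the difference between pools, 2 in the main fit, the count was 0 without the replicate block, 0 with DESeq2, 0 with filterByExpr and 0 to 35 when each female was left out, with 35 without F6. The cause of these shifts was not tested. With 3 against 4 libraries the exact permutation p cannot go below 0.0286.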
